A study of Homo sapiens with 9 samples.

Results

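The contacts that 20 promoters made with chromosomes other than their own were taken from Capture-C profiles of HCT-116 MED14-dTAG cells. In Capture-C, chromatin is crosslinked, cut with DpnII at its recognition sequence GATC and religated, and ligation products of a chosen promoter, the viewpoint, are enriched with oligonucleotides and sequenced. Every DpnII fragment on chromosomes 1 to 22 that lay on another chromosome than the viewpoint was kept, which left 8447651 of the 11339756 entries of viewpoint and fragment in the whole data set. Of these, 2452658 (29.03%) held signal in at least 1 library. They were summed per chromosome and per fixed window of 1 Mb, here called a bin, which gave 420 pairs of viewpoint and chromosome, 2778 bins and 52304 pairs of viewpoint and bin.

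HCT-116 cells are an established line from a human colorectal carcinoma, and in their MED14-dTAG derivative the Mediator subunit MED14 carries a tag through which a small-molecule ligand brings about its degradation. All 9 libraries come from this derivative, so that every group carries the tagged allele, and no wild-type cells were included. There were 3 libraries each from cells treated with DMSO alone, with dTAG ligand at 0.5 μM for 2 h, and with the same dTAG treatment combined with the BET inhibitor I-BET at 1 μM for 90 min (dTAG+I-BET). No library had I-BET alone, so its effect could be read only in Mediator-depleted cells. The study describes the libraries as biologically independent, and n = 3 rests on that statement.

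Each chromosome occupies its own territory in the nucleus, so that a promoter meets its own chromosome far more often than any other. Contacts between chromosomes are known to be more frequent among gene-dense, active regions than among gene-poor ones. They also rise where a rearrangement has joined pieces of different chromosomes. Published karyotypes of HCT-116 contain joined pieces of chromosomes 8 and 16 and of chromosomes 17 and 18, and an enlarged chromosome 10. These are examples and not a full list, also for junctions of chromosome 10. Ligation in solution adds a background that touches all chromosomes.

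A small group of interchromosomal peaks was confined to single DpnII fragments, and these fragments shared a short sequence with the viewpoint that reported them. The pairs below are shown because the shared run ends at a GATC of the viewpoint, the position where a ligation junction forms. Capitals mark the run that is identical in the fragment and in the stretch around the promoter without any listed fragment, and the GATC beside it stands in lower case in the viewpoint lines (hg38).
DCBLD2 fragment (chr17:5500029-5500057, plus strand): accgaGTCCCGCCCTCCAGCTTCGcctgc
DCBLD2 viewpoint (chr3:98901924-98901952, plus strand): tccagGTCCCGCCCTCCAGCTTCGgatcc
ITPRID2 fragment (chr4:183400151-183400180, plus strand): ggctaaGTTTACTAATATCCCCAAaactct
ITPRID2 fragment (chr17:54045539-54045568, plus strand): caagtaGTTTACTAATATCCCCAAtatcat
ITPRID2 viewpoint (chr2:181890549-181890578, minus strand): ctaatgGTTTACTAATATCCCCAAgatcaa
IRS1 fragment (chr1:220015632-220015661, plus strand): aacagaCCCTCACCATGGCCTATCatcatg
IRS1 viewpoint (chr2:226800300-226800329, minus strand): cagatcCCCTCACCATGGCCTATCgccctg
KRT80 fragment (chr14:100590009-100590038, plus strand): ccaggcTTCTGGCCCTGGTGGCTGagtata
KRT80 viewpoint (chr12:52193149-52193178, plus strand): ctgatgTTCTGGCCCTGGTGGCTGgatctg
KITLG fragment (chr1:47747544-47747573, plus strand): caatccTCCCAGCTTACCCTCCCGagtatc
KITLG viewpoint (chr12:88580747-88580776, plus strand): gaggagTCCCAGCTTACCCTCCCGgatccg
HMGA2 fragment (chr1:19716018-19716047, plus strand): atagaaTTAAAGGGACAGGCCGGGtgcact
HMGA2 viewpoint (chr12:65824137-65824166, minus strand): gcggggTTAAAGGGACAGGCCGGGgatccc

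Interchromosomal contacts made up 20.8% to 47.8% of a viewpoint's interactions in a library. A library held 251357 to 447165 interchromosomal interactions over the 20 viewpoints, and a single viewpoint 6700 to 32673. Values are given below as signal per Mb, the deposited signal summed over other autosomes and divided by their length; the authors scaled each viewpoint and library so that contacts on its own chromosome come to about the same sum. Averaged over viewpoints, replicates 1 to 3 were at 199, 189 and 201 per Mb in DMSO, at 173, 178 and 228 in dTAG, and at 191, 197 and 186 in dTAG+I-BET. The dTAG group was therefore the most spread, since its replicate 3 was the highest of all 9 libraries at 15 viewpoints and its replicate 1 the lowest at 15. Because this scaling uses contacts on the viewpoint's own chromosome, a loss of those and a gain of interchromosomal contacts cannot be told apart.

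The 20 promoters differed in how much they contacted other chromosomes, and the order was led by ANGPT2, which encodes a ligand of the TIE2 receptor. ANGPT2 had 276.5 ± 17.9 per Mb in DMSO (SD, n = 3), followed by DCBLD2, a gene for a neuropilin-like membrane protein, with 269.4 ± 18.4. DDIT4, which encodes an inhibitor of mTORC1 signaling, had 261.7 ± 18.4, and these 3 promoters did not differ beyond their spread. The keratin gene KRT80 had 233.8 ± 7.0 and the methionine salvage enzyme gene MTAP 232.4 ± 6.19, again without a gap beyond the spread.

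IRS1, which encodes an adaptor of the insulin receptor, had the fewest interchromosomal contacts, with 113.0, 103.3 and 108.1 per Mb in the DMSO replicates. PCDH7, a protocadherin gene, was next with 137.2, 131.7 and 120.5, so that all DMSO libraries of PCDH7 lay above those of IRS1. The share of interchromosomal contacts followed the same order at its ends, with a mean over libraries of 43.6% for ANGPT2 and 23.6% for IRS1.

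**Figure D1:**
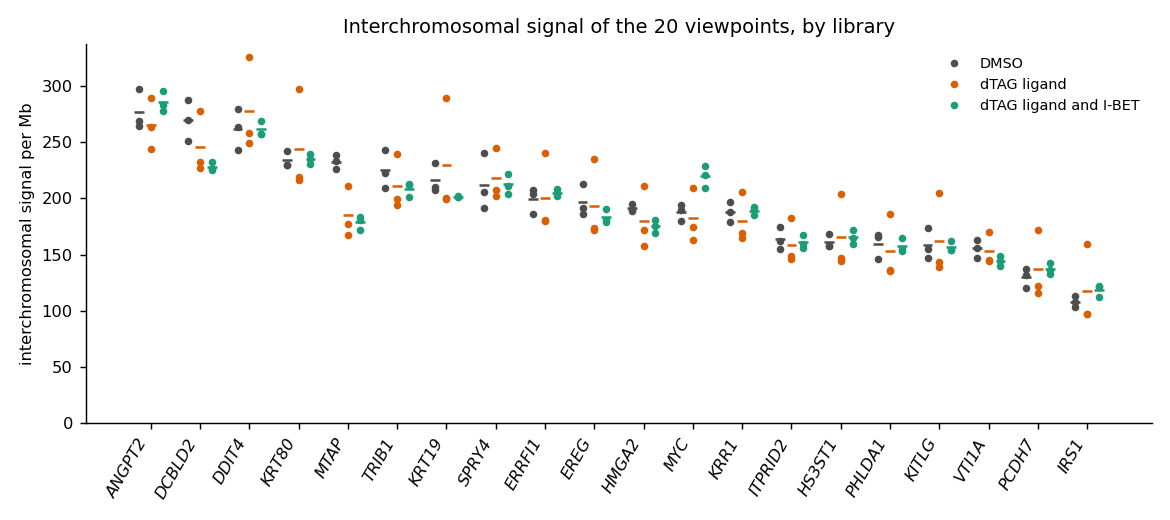
Interchromosomal signal per Mb (y axis) of each of the 20 viewpoints (x axis, ordered by DMSO mean); dots are libraries, colored by treatment, and short bars are group means of 3 libraries. ANGPT2 stands at 276.5 and IRS1 at 108.1 per Mb in DMSO, and the dTAG dots are spread widest because replicate 3 is the highest of 9 libraries at 15 viewpoints.

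Chromosomes 17 and 19, which are rich in genes, received the most contacts per Mb from almost every promoter. The signal per Mb of a chromosome was divided by the viewpoint's own average over other autosomes, which gives a relative level of 1 for an even spread. Chromosome 17 had a median relative level of 1.64 over the 19 viewpoints on other chromosomes, and all 19 lay above 1, from 1.29 for IRS1 to 2.58 for KRT80. Chromosome 19 had 1.48, with 20 of 20 viewpoints above 1, from 1.17 for IRS1 to 2.90 for KRT19.

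Averaged over viewpoints, chromosome 17 received 339.4, 329.8 and 352.2 per Mb in the DMSO replicates. In dTAG the values were 287.1, 304.2 and 399.7 and in dTAG+I-BET 317.2, 324.8 and 308.1. The dTAG libraries spanned both other groups, whereas all DMSO libraries lay above all dTAG+I-BET libraries (limma log2 ratio -0.098, adjusted p = 0.949).

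At the other end, chromosomes 13, 18 and 21 had median relative levels of 0.719, 0.773 and 0.789. No viewpoint reached its own average on chromosomes 13 and 18, whereas 3 did on chromosome 21, where ANGPT2 was highest with 1.27. Chromosomes 13 and 18 have 2.82 and 3.31 coding genes per Mb, against 14.2 on chromosome 17 and 25.2 on chromosome 19. The order did not follow gene density throughout. Chromosome 10, with 5.46 coding genes per Mb, had 1.09 and 18 of 18 viewpoints above 1. Chromosome 11, with 9.75, had 1.01 and 13 of 20 above 1. Chromosome 22, also gene-rich, had 0.979, with a range from 0.725 for IRS1 to 1.66 for KRT19. These levels are per full chromosome length, including stretches with few listed fragments. The longest such stretch spanned 18 bins on chromosome 13 (114.4 Mb), 11 on chromosome 22 (50.8 Mb) and 5 on chromosome 21 (46.7 Mb). On chromosomes 17, 18 and 19 it spanned 5 bins each. The levels of chromosomes 13, 21 and 22 are therefore lowered by this length, and levels without these stretches were not computed.

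The preference for gene-rich chromosomes differed in strength between promoters. The signal per Mb on chromosomes 16, 17, 19 and 22 over that on chromosomes 4, 13 and 18 was 3.07 ± 0.143 for KRT80 (SD over 9 libraries), 2.59 ± 0.156 for the keratin gene KRT19 and 2.59 ± 0.149 for DDIT4. TRIB1, which encodes a pseudokinase, followed with 2.08 ± 0.0876. KITLG, which encodes the ligand of the KIT receptor, had 1.28 ± 0.0593 and IRS1 1.16 ± 0.0339. The lowest library of KRT80 (2.84) lay just inside the range of KRT19 and DDIT4, whose highest were 2.86 and 2.89, and all 3 lay above the highest library of TRIB1 (2.19). In IRS1, the ratio ranged from 1.10 to 1.21 and thus stayed above 1 in each of the 9 libraries. The ratio also uses full chromosome lengths, so 1 is not an exact mark of an even spread.

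**Figure D2:**
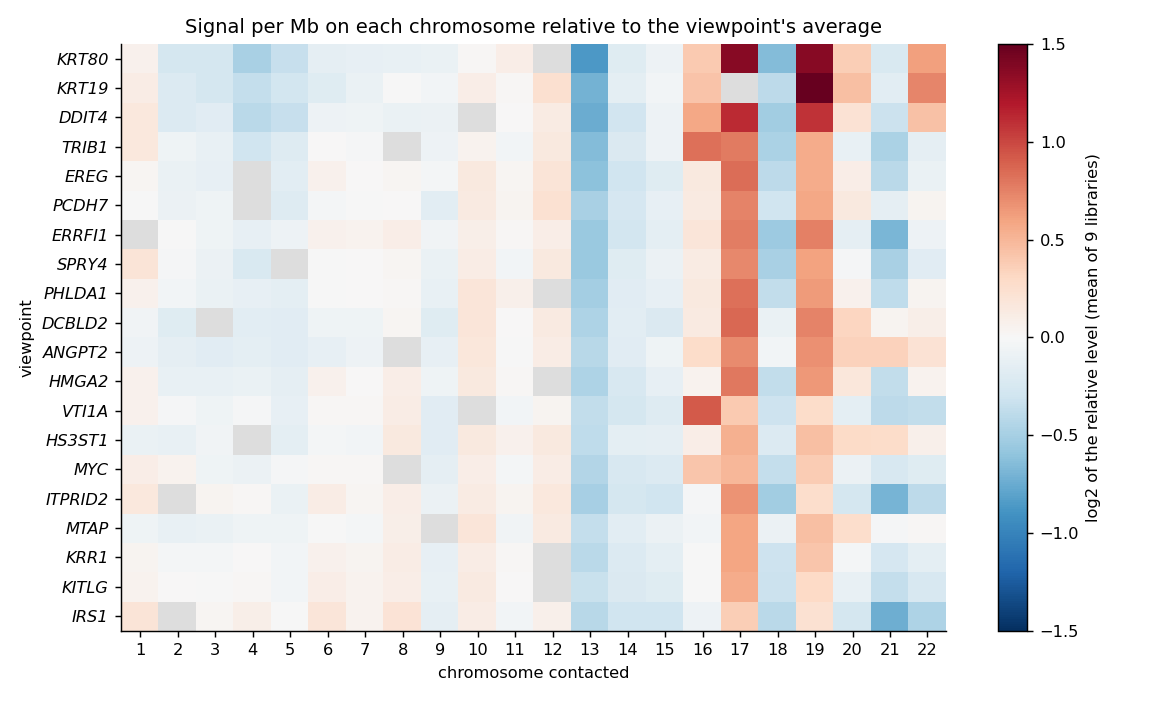
Relative level (color, log2 scale) of each chromosome (columns) for each viewpoint (rows, ordered by the ratio of gene-rich to gene-poor chromosomes); gray cells are the viewpoint's own chromosome. The columns of chromosomes 17 and 19 are high throughout (median 1.64 and 1.48), chromosome 13 is low throughout (0.719), and chromosome 16 is highest for VTI1A (1.89).

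Some bins were high for many promoters at once. A bin was called high for a viewpoint if its signal was at least 2 times the viewpoint's median interchromosomal bin in each of the 3 groups. A bin was called shared if it was high for at least 10 viewpoints and for no fewer than 50% of those on other chromosomes. Shared bins numbered 31 of 2778 (1.116%), and 13 of them lay among the 84 bins of chromosome 17 (15.5%). All 13 lay at or beyond chr17:45000001. Chromosome 16 held 4, chromosomes 7 and 19 held 3 each, chromosome 10 held 2, and chromosomes 1, 2, 8, 11, 18 and 21 held 1 each.

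The highest shared bin, chr2:32000001-33000000, was held mostly by a single fragment. Its level relative to the median bin was 12.2 (median over viewpoints), and it was high for 18 of 18 viewpoints. The medians of replicates 1 to 3 were 12.25, 11 and 11.9 in DMSO, 10, 12 and 12.7 in dTAG, and 12.8, 13.1 and 13 in dTAG+I-BET. All dTAG+I-BET libraries lay above the others. One DpnII fragment, chr2:32915072-32918563 in an intron of the noncoding gene LINC00486, held 8947 of the 10014 interactions of the bin (89.3%). Of its 3492 bases, 1000 are not known in hg38 and 661 are G, with an unbroken run of 81 G; the part of this sequence in the signal was not tested.

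The next bins had no such leading fragment. The bin chr21:8000001-9000000, without any coding gene, had a relative level of 6.86 and was high for 20 of 20 viewpoints, and its leading fragment held 0.694% of the interactions. The bin chr1:143000001-144000000 had 3.95 (19 of 19 viewpoints), and the first bin of chromosome 18 had 3.05 (19 of 20). In the leading fragments of these bins of chromosomes 21, 1 and 18, 0% of the runs of 32 bases were unique. Their median number of copies in the genome was 4, 24 and 4. The part of repeated sequence in the signal of these bins was not tested. Of the 31 shared bins, 30 had a leading fragment with under 5% of the interactions. On chromosome 17, the bins from 58 to 60 Mb had 2.93 and 2.99, and the bins that start at 75, 64 and 67 Mb had 2.83, 2.68 and 2.67. Among the 20 bins that hold a captured promoter, the bin with TRIB1 (relative level 2.62) was the only shared one.

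Shared bins held a median of 15 coding genes, against 4 over all bins, and had a GC content of 47.9% against 40.2%. Listed fragments covered 92.7% of a shared bin (median) and 71.3% of all bins. Over 2710 bins, the relative level correlated with the number of coding genes (Spearman rho = 0.786), with GC content (0.707), with the number of GATC sites (0.812) and with the covered length (0.892). These are descriptions across bins of the same libraries, and the bin features move together. After division by covered length, 7 bins were shared. Of these, 4 were among the 31 (chr2:32000001-33000000, chr21:8000001-9000000, chr1:143000001-144000000 and the first bin of chromosome 18), and none lay on chromosome 17. Covered length was not independent of contacts. MTAP had 209560 listed fragments and 82609 interactions, and KRT80 had 594903 and 206545. Over bins, the relative level correlated with the number of listed fragments (Spearman rho = 0.968). The division therefore cannot show on what the count on chromosome 17 rests.

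Other bins stood out for single promoters or for a few of them. A pair of viewpoint and bin was called specific if its relative level was at least 1.5 and at least 2 times the median of the same bin over viewpoints on other chromosomes, in each of the 3 groups; the same bin can be specific for several promoters. Specific pairs numbered 326 of 52304 (0.623%). KRT80 had 135, KRT19 64 and DDIT4 33, which together made 232 (71.2%). ERRFI1, which encodes an inhibitor of EGF receptor signaling, had 22, whereas HMGA2, KITLG, PCDH7 and PHLDA1 had none. On chromosomes 16, 17, 19 and 22 there were 142 of them.

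The strongest run of specific bins joined VTI1A, which encodes a SNARE protein and lies on chromosome 10, to the long arm of chromosome 16. It spanned 9 bins (chr16:79000001-88000000) with a mean relative level of 10.1. In the highest bin, at 81 Mb, the level reached 21.7, which was 10.1 times the median of the other viewpoints, and its interactions came from 876 fragments, of which the leading one held 0.636%. Over the run, signal per bin was 1351, 1612 and 1299 in DMSO, 1500, 1501 and 1714 in dTAG, and 1381, 1448 and 1403 in dTAG+I-BET. The 3 groups overlapped, and no library was near the level of other viewpoints.

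DDIT4, on the same chromosome 10, had a specific run near the end of chromosome 16 (chr16:85000001-90000000) with a mean relative level of 7.07; its highest bin was at 4.02 times the other viewpoints. Its signal was 1387, 1302 and 1677 in DMSO, 1144, 1250 and 2125 in dTAG, and 1307, 1713 and 1386 in dTAG+I-BET, with the highest value in dTAG replicate 3. The highest bin of DDIT4 lay at 89 Mb, and that of VTI1A at 81 Mb.

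TRIB1, on chromosome 8, had a specific run at the start of chromosome 16, over the first 4 bins (chr16:1-4000000) with a mean relative level of 5.46. The signal per bin was 1122, 965 and 917 in DMSO, 1154, 1102 and 1004 in dTAG, and 875, 859 and 1055 in dTAG+I-BET, and the groups overlapped. In windows of 10 Mb, TRIB1 had 3.19, 3.19 and 2.37 from the start of chromosome 16 to 30 Mb, where the median of all viewpoints was 1.33, 1.48 and 1.5. MYC, which encodes a transcription factor and lies close to TRIB1, had 1.58, 1.76 and 1.71 in these windows. From 80 Mb to the end, VTI1A had 9.28 and DDIT4 4.65, while TRIB1 had 3.23 and MYC 2.12, against a median of 1.83. The median bin of the whole chromosome 16 was at 1.73 for TRIB1, 1.36 for ANGPT2 at the other end of chromosome 8, 1.34 for MYC, 1.31 for DDIT4 and 1.13 for VTI1A, against 1.16 for viewpoints outside chromosomes 8 and 10. Whether rearranged chromosomes in this line account for any of these runs was not tested.

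**Figure D3:**
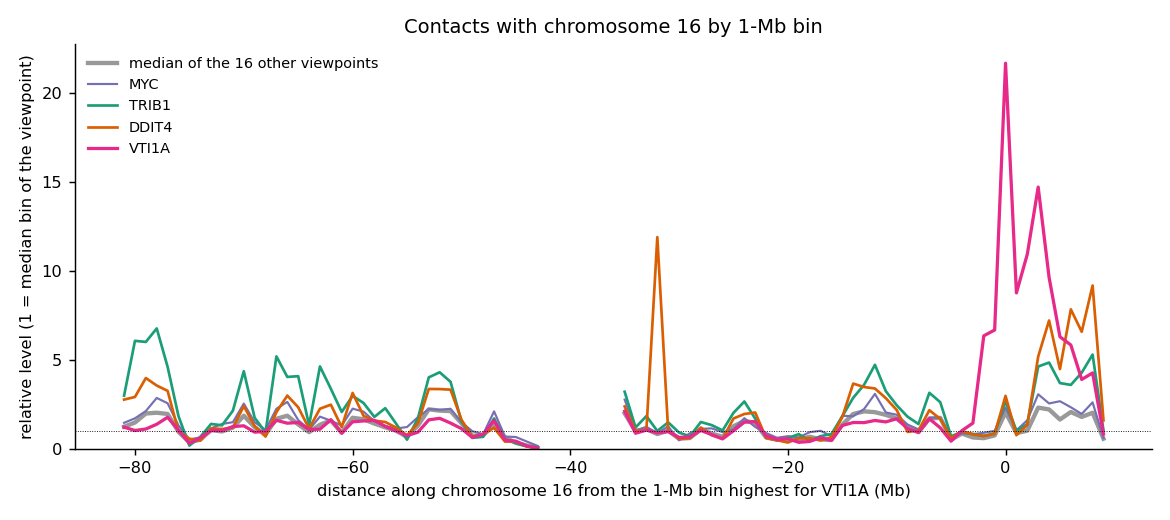
Relative level of 1-Mb bins of chromosome 16 (y axis) against the distance from the highest VTI1A bin in Mb (x axis) for VTI1A, DDIT4, TRIB1, MYC and the median of the other 16 viewpoints. VTI1A reaches 21.7 at its peak, DDIT4 is high toward the end of the chromosome (up to 9.19), and TRIB1 is high at its start (up to 6.78); the isolated DDIT4 spike is the bin of a single fragment.

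ERRFI1, on chromosome 1, had a run near the end of chromosome 8 (chr8:141000001-145000000) with a mean relative level of 5.01; its highest bin was at 2.80 times the other viewpoints. Its signal was 709, 698 and 1027 in DMSO, 672, 762 and 1111 in dTAG, and 861, 799 and 708 in dTAG+I-BET, so that replicate 3 was highest in the DMSO and dTAG groups. On chromosome 18, the median bin of the chromosome 17 gene KRT19 was at 0.722, against 0.732 for viewpoints of other chromosomes. Its upper quartile was 1.23 against 1.11, and 3.70% of its bins were high against 1.56%, and these differences were not tested.

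The keratin promoters had broad sets of specific bins in gene-dense regions. KRT80, on chromosome 12, had 19 runs of 3 or more bins, among them 9 bins at the end of chromosome 17 (chr17:75000001-83257441, mean relative level 6.93) and 8 at the start of chromosome 19 (chr19:1-8000000, 6.69). KRT19 had 7 runs, led by the same 8 bins of chromosome 19 with 7.26 (4.39 times the other viewpoints in the highest bin) and by chr19:41000001-51000000 with 6.10. Across bins, the profiles of DDIT4 and KRT80 were the most alike of all pairs (Pearson r = 0.66 over 2443 bins), followed by KRT19 and KRT80 (0.59) and DDIT4 and KRT19 (0.51). ANGPT2 and HS3ST1, which encodes a heparan sulfate sulfotransferase, came next with 0.46. The bins share libraries, depth and base composition. Over all pairs, r ran down to -0.54 (ERRFI1 and HS3ST1). The level of every promoter rose with the number of coding genes, with a Spearman rho from 0.551 for MTAP to 0.780 for KRT80. The r is therefore read only as a ranking of pairs and not as the likeness of plain levels.

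Type II keratins such as KRT80 pair with type I keratins such as KRT19, and their genes lie in clusters on chromosomes 12 and 17. The 2 bins of the type I cluster had a median relative level of 8.94 from KRT80, against 1.81 from viewpoints outside both chromosomes. Much of this came from a single fragment in the bin at 40 Mb, which fell from 12.6 to 5.19 without it, whereas the bin at 41 Mb with KRT19 itself was at 5.22 and 5.17 without its leading fragment. In the other direction, the bin with the type II cluster had 3.94 from KRT19 and 1.54 from other viewpoints. These levels were in the range of the other KRT80 and KRT19 runs.

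Bins that hold another captured promoter had a median relative level of 1.48 (20 bins, 344 pairs), against 1.09 for the bins next to them and 1.01 for all bins. The excess was not centered on the captured start sites. Within 10 kb of the start site, interactions per length were 0.481 to 1.54 times those from 10 to 110 kb. Bins of chromosomes 16, 17, 19 and 22 had 1.49 and those of chromosomes 4, 13 and 18 had 0.852. Bins of chromosomes 13, 14, 15, 21 and 22, whose short arms carry ribosomal DNA, had 1.01. This is a median over 355 bins of the whole chromosomes, whose starts hold few listed fragments, and it does not describe the short arms. Among these bins was chr21:8000001-9000000, with the relative level of 6.86 given above.

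Genes named after a viewpoint gene were also looked up, since processed copies share sequence with it. The pseudogene MTAPP2 on chromosome 3 held 49 interactions with MTAP, and its bin had a relative level of 2.83 from MTAP and 1.2 from other viewpoints. KRT19P3 held 43 interactions with KRT19, with 3.38 and 1.18. KRT19P1 held 25 and KRR1P1 held 23, whereas the paralogs MYCL and DDIT4L and the pseudogenes MTAPP1, KRT19P4 and KRT19P6 held no listed fragment. None of these bins was specific by the rule above.

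Single fragments gave the highest isolated signals. There were 64 fragments on other chromosomes with at least 50 interactions of which over 50% came from a single viewpoint, a set chosen after seeing the data. Of these, 22 fragments of 10 viewpoints held an exact copy of the 18 bases beside a GATC of that viewpoint, as in the sequences above. They included 21 of the 28 fragments with at least 100 interactions and 10 of the 10 with at least 200, and they held 6796 of 9831 interactions.

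The position of the copied bases made a difference. Around the 20 promoters there were 118 runs of 18 bases beside a GATC with at most 10 copies elsewhere. Of these runs, 28 had copies on other chromosomes, 40 copies in all. These copies fell in 39 listed fragments, whose median was 129 interactions with that viewpoint, while the highest count from another viewpoint was 4. From elsewhere in the same stretches, 5915 of 36337 runs of 18 bases had 10279 copies. These fell in 824 listed fragments, with a median of 0 and a highest value of 69. Fragments that also held a copy beside a GATC were left out of this second set. The 42 fragments without such a copy reached 131 interactions, and 29 of them held a run of 32 bases that occurs at least 1000 times in the genome. The origin of these signals was not tested.

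**Figure D4:**
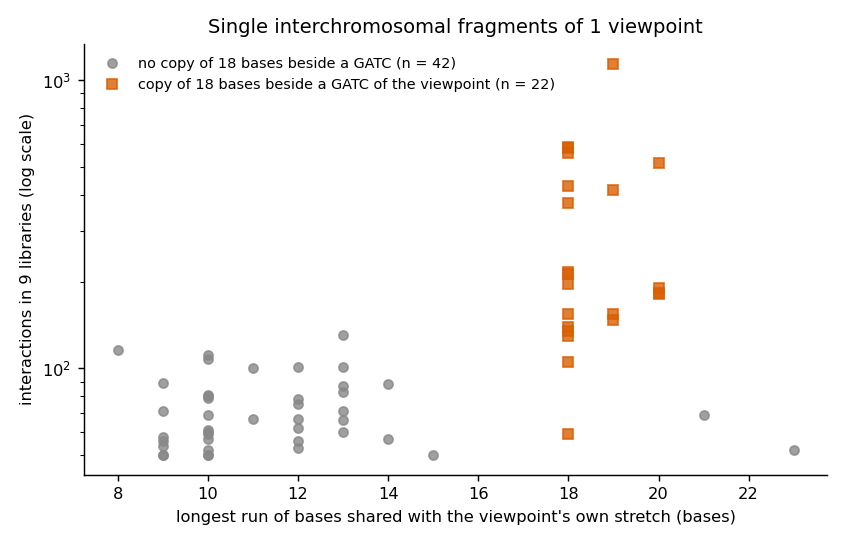
Longest run of bases shared between a fragment and the viewpoint's own stretch, and interactions with that viewpoint over 9 libraries (log scale), for 64 single fragments. The 22 fragments with a copy of the 18 bases beside a GATC (orange squares) include all 10 fragments with at least 200 interactions, and the 42 without (gray circles) reach 131.

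The largest single fragment linked DCBLD2 to an exon of NLRP1, which encodes an inflammasome sensor, at chr17:5499640-5500273. It held 91, 240 and 131 interactions in the DMSO replicates, 50, 261 and 137 in dTAG, and 77, 80 and 72 in dTAG+I-BET. Counts were highest in replicate 2 of the DMSO and dTAG groups, the libraries with the most interactions. The dTAG libraries overlapped with both other groups, and all dTAG+I-BET libraries lay below all DMSO libraries. The fragment made up 90.7% of its bin and 0.563% of all interchromosomal interactions of DCBLD2.

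ITPRID2 had a pair of fragments with the same copied run. The fragment chr4:183400038-183400517, in intergenic sequence, held 60, 75 and 79 interactions in DMSO, 37, 101 and 71 in dTAG, and 54, 54 and 52 in dTAG+I-BET. The fragment chr17:54045296-54046083 held 38, 91 and 61, then 45, 91 and 59, then 65, 59 and 50. In both, the highest count was in dTAG replicate 2 or shared by it. The groups overlapped at the fragment of chromosome 17. At that of chromosome 4 all dTAG+I-BET counts lay below all DMSO counts, but counts depend on library depth. This fragment made up 87.5% of the interactions of its bin, and the scaled signal of the bin overlapped. It was 1934.7, 1447 and 2086 in DMSO and 1596.5, 1760.7 and 1456.3 in dTAG+I-BET.

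IRS1 contacted chr1:220015418-220015811, in an intron of EPRS1, which encodes a tRNA synthetase, with 44, 56 and 61 interactions in DMSO, 34, 35 and 48 in dTAG, and 62, 46 and 41 in dTAG+I-BET. KRT80 contacted chr14:100589845-100591994 with 29, 82 and 48, then 18, 104 and 54, then 10, 17 and 13, so that all dTAG+I-BET libraries lay below the others. A fragment of KRT80 in an exon of RAPGEFL1, chr17:40194067-40194840, is the leading fragment of the bin at 40 Mb described above and held 36, 90 and 44, then 27, 78 and 54, then 19, 37 and 30.

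A few fragments came and went between libraries of 1 treatment. The fragment of KITLG, chr1:47747509-47748290, held 6, 70 and 28 interactions in DMSO, 0, 89 and 22 in dTAG, and 0, 0 and 1 in dTAG+I-BET. The fragment of HMGA2, chr1:19715907-19716048 in an intron of TMCO4, held 0, 54 and 11, then 0, 51 and 12, then 1, 0 and 0. Both were at 6 or fewer interactions in replicate 1 of each group and in every dTAG+I-BET library. In DMSO and dTAG, both were highest in replicate 2 and lowest in replicate 1, as was library depth. Treatment with I-BET and a different preparation of the dTAG+I-BET libraries cannot be told apart here. In limma, neither bin passed the threshold between dTAG+I-BET and DMSO (log2 ratio -2.16 for KITLG and -1.62 for HMGA2, both adjusted p = 0.932).

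Summed over the 22 fragments, the share of interchromosomal interactions was 0.217%, 0.244% and 0.2401% in the DMSO replicates and 0.197%, 0.299% and 0.341% in the dTAG replicates. It was 0.185%, 0.180% and 0.181% in the dTAG+I-BET replicates, all 3 below the other libraries. Here too, treatment and preparation cannot be told apart. The largest share in a viewpoint was 0.701%, in ITPRID2, so the totals per viewpoint rest almost wholly on other fragments.

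The treatments were compared with limma on log2 of signal per Mb plus 20, with all 9 libraries in the fit and Benjamini-Hochberg adjustment over all features of a kind; a change was called at an adjusted p under 0.05. The comparison of dTAG with DMSO addresses Mediator depletion, and those of dTAG+I-BET with dTAG and with DMSO address the added BET inhibition and both together. All 3 use the same libraries and are not independent. Library depth had the same order over the replicates in DMSO and dTAG but not in dTAG+I-BET. A difference in preparation between groups was not tested. The spread between dTAG libraries limited the comparisons with dTAG, and values without dTAG replicate 3 are given for this reason.

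Over the 20 promoters as a whole, interchromosomal contacts did not move in a common direction. In dTAG against DMSO, 8 promoters were higher and 12 lower, and in both other comparisons 9 were higher and 11 lower. The mean log2 ratio over viewpoints was -0.028 in dTAG relative to DMSO (exact permutation test over libraries, two-sided, p = 0.9). It was -0.029 in dTAG+I-BET relative to DMSO and -0.000404 relative to dTAG (exact permutation test, p = 0.5 and p = 1). The smallest p that 3 against 3 libraries allow is 0.1. Without dTAG replicate 3, the mean of dTAG relative to DMSO was -0.145, and that of dTAG+I-BET relative to dTAG was 0.116. Leaving out dTAG replicate 1 or 2 turned the mean of dTAG relative to DMSO to 0.038 or 0.022, and leaving out dTAG+I-BET replicate 1 or 3 turned that of dTAG+I-BET relative to dTAG to 0.0012 or 0.017.

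Among single promoters, MTAP had fewer interchromosomal contacts after treatment. It had 238.3, 226.0 and 233.1 per Mb in DMSO, 167.4, 177.5 and 210.9 in dTAG, and 183.5, 181.0 and 171.9 in dTAG+I-BET. Every DMSO library lay above every dTAG and dTAG+I-BET library. The log2 ratio of dTAG+I-BET to DMSO was -0.34 ± 0.11 (SE, limma adjusted p = 0.0417), the only total called among 20 in this comparison (5.00%), whereas that of dTAG to DMSO was -0.30 ± 0.11 (adjusted p = 0.128). The call rested on each library. It was lost when any 1 of the DMSO or dTAG+I-BET libraries was left out, with an adjusted p from 0.126 without DMSO replicate 2 to 0.359 without dTAG+I-BET replicate 3, and edgeR on the recovered interactions gave 0.0555.

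MYC had its highest values when I-BET was added. It had 193.9, 180.1 and 189.3 per Mb in DMSO, 162.8, 174.7 and 209.1 in dTAG, and 220.6, 228.9 and 209.4 in dTAG+I-BET. All dTAG+I-BET libraries lay above all others, by a narrow margin over dTAG replicate 3. The log2 ratio was 0.25 to dTAG (limma adjusted p = 0.476) and 0.21 to DMSO (adjusted p = 0.419), neither called.

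DCBLD2 had 287.6, 270.0 and 250.7 per Mb in DMSO, 226.7, 232.0 and 277.4 in dTAG, and 226.3, 231.9 and 224.7 in dTAG+I-BET. The DMSO and dTAG+I-BET libraries did not overlap, and the log2 ratio of dTAG+I-BET to DMSO was -0.22 (limma adjusted p = 0.419). In this comparison MTAP, DCBLD2, HMGA2 and KRT19 lay wholly below DMSO and MYC wholly above. HMGA2, an architectural chromatin protein gene, had 189.4, 188.6 and 194.9 in DMSO and 175.1, 181.0 and 168.7 in dTAG+I-BET. In dTAG against DMSO, MTAP was the only promoter without overlap, and in dTAG+I-BET against dTAG it was MYC. For a single promoter, full separation of 3 against 3 libraries in either direction has a chance of 0.1, and 20 promoters were compared. Lack of overlap alone is therefore a description and not a call.

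No total was called with limma in dTAG against DMSO or in dTAG+I-BET against dTAG (0 of 20 and 0%, with 1 at an unadjusted p under 0.05 in each; edgeR also called 0). Leaving out dTAG replicate 3 raised these counts to 13, all lower in dTAG, and to 9, all higher in dTAG+I-BET, and the count of dTAG+I-BET against DMSO to 3.

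Because most promoters moved together from library to library, the totals were also centered on the median viewpoint of each library, a choice made after seeing the data. MTAP was then lower in dTAG than in DMSO by a log2 ratio of -0.23 (limma adjusted p = 0.000266) and in dTAG+I-BET by -0.30 (adjusted p = 2.37e-05). MYC was higher in dTAG+I-BET by 0.22 than in dTAG (adjusted p = 0.000371) and by 0.25 than in DMSO (adjusted p = 6.25e-05). DCBLD2 was lower in dTAG+I-BET than in DMSO by -0.18 (adjusted p = 0.00668), and no other promoter was called in any of the 3 comparisons. On this scale a promoter is compared with the other promoters of the same library.

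The differences of MTAP, MYC and DCBLD2 were spread over their partner chromosomes. MTAP was lower on 21 of 21 chromosomes in dTAG (median log2 ratio -0.32) and in dTAG+I-BET (-0.37), both against DMSO. MYC was higher in dTAG+I-BET on 21 of 21 chromosomes, by a median of 0.27 against dTAG and 0.21 against DMSO, with none called. DCBLD2 was lower in dTAG+I-BET than in DMSO on 21 of 21, with a median of -0.22.

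Of 420 pairs of viewpoint and chromosome, limma called 9 in dTAG+I-BET against DMSO (2.14%), all lower, and 8 of them belonged to MTAP; edgeR on the recovered interactions called 0, with a lowest adjusted p of 0.116. The largest was MTAP with chromosome 20, which had 336.2, 292.9 and 272.0 per Mb in DMSO, 193.6, 219.2 and 262.1 in dTAG, and 185.5, 231.1 and 167.9 in dTAG+I-BET. The DMSO libraries lay above all others, and the log2 ratio of dTAG+I-BET to DMSO was -0.58 ± 0.12 (limma adjusted p = 0.000226). It was -0.49 and no longer called without dTAG+I-BET replicate 3 (adjusted p = 0.171), or without DMSO replicate 1 (-0.50, adjusted p = 0.0585). The other called pairs were MTAP with chromosomes 1, 10, 14, 17, 18, 21 and 22, with log2 ratios from -0.45 to -0.40, and DCBLD2 with chromosome 20 (-0.39).

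In dTAG against DMSO, 1 pair was called (0.238%), MTAP with chromosome 22, at 253.9, 256.2 and 231.8 per Mb in DMSO, 141.7, 193.5 and 188.9 in dTAG, and 200.1, 192.7 and 158.3 in dTAG+I-BET. The DMSO libraries were again the highest, and the log2 ratio was -0.47 ± 0.12 (limma adjusted p = 0.0290; edgeR called 0 pairs, with a lowest adjusted p of 0.518). This call was lost when any library other than dTAG replicate 2 or 3 was left out, with an adjusted p of up to 0.733 without dTAG replicate 1, where the log2 ratio was -0.34. In dTAG+I-BET against dTAG none was called with limma (0%, with 15 at an unadjusted p under 0.05 and 0 with edgeR). Without dTAG replicate 3, the counts were 42 pairs in dTAG against DMSO, all lower, 45 in dTAG+I-BET against dTAG, all higher, and 40 in dTAG+I-BET against DMSO, 30 lower and 10 higher. The count in dTAG+I-BET against DMSO also fell to 0 without dTAG+I-BET replicate 3, to 1 without dTAG+I-BET replicate 2 or any DMSO library, to 3 without dTAG+I-BET replicate 1, and to 5 without dTAG replicate 2. After every library was rescaled to equal interchromosomal totals per viewpoint, none was called in any of the 3 comparisons, so that no pair was called apart from the total of its viewpoint.

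**Figure D5:**
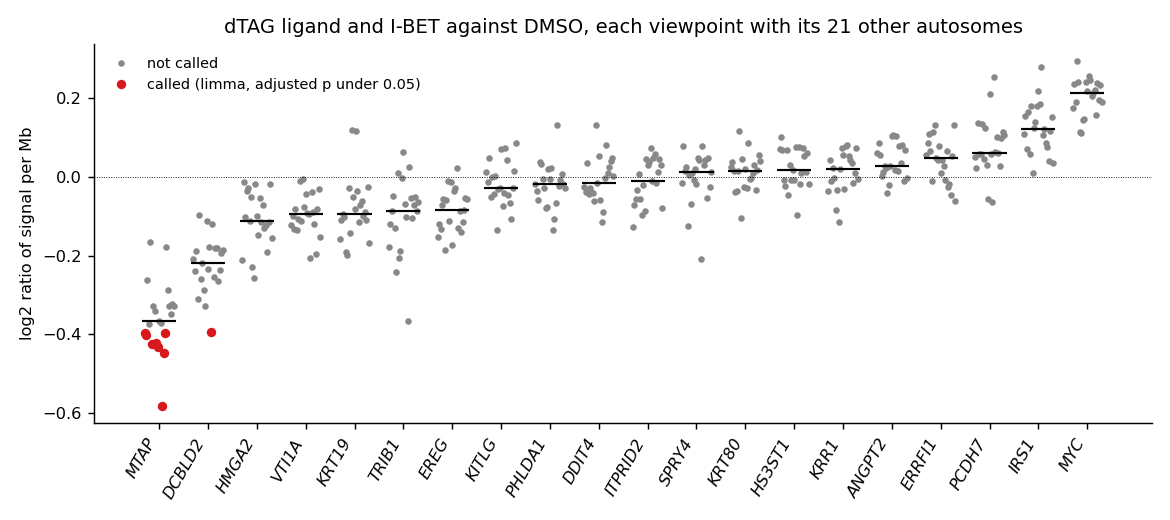
Log2 ratio of dTAG+I-BET to DMSO (y axis) for the 21 partner chromosomes (dots) of each viewpoint (x axis); red dots are the 9 pairs called with limma. All dots of MTAP lie below 0 (median -0.37), those of DCBLD2 too (-0.22), and all dots of MYC lie above 0 (0.21).

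Summed over viewpoints, limma called none of the 22 chromosomes in any comparison (0%, none at an unadjusted p under 0.05, and none with edgeR). Without dTAG replicate 3, all 22 were lower in dTAG than in DMSO, with a median log2 ratio of -0.14, and 20 were higher in dTAG+I-BET than in dTAG. The ratio of gene-rich to gene-poor chromosomes, which does not depend on the totals, was 1.74 ± 0.0124 in DMSO, 1.71 ± 0.0638 in dTAG and 1.57 ± 0.0386 in dTAG+I-BET for DCBLD2 (SD, n = 3). For ITPRID2 it was 1.41 ± 0.0387 in DMSO and 1.33 ± 0.0222 in dTAG+I-BET, and for KRR1 1.39 ± 0.0264 and 1.34 ± 0.0271. Other promoters went the other way, with PCDH7 at 1.68 ± 0.0983 in DMSO and 1.81 ± 0.160 in dTAG+I-BET, and IRS1 at 1.13 ± 0.0280 and 1.18 ± 0.0346. The means of ERRFI1, SPRY4, HMGA2, HS3ST1, KITLG and VTI1A were also higher in dTAG+I-BET than in DMSO. DCBLD2, ITPRID2 and KRR1 were chosen after their values were seen, and the ratios were not tested between treatments.

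Single bins were likewise not called. Of 2743 bins with a mean signal of at least 50, limma called 0 in each comparison (0%), with 49, 74 and 91 at an unadjusted p under 0.05 in the order dTAG against DMSO, dTAG+I-BET against dTAG, and dTAG+I-BET against DMSO, and 0 with edgeR. Without dTAG replicate 3, 27 bins were lower in dTAG than in DMSO and 4 higher in dTAG+I-BET than in dTAG. The lowest p was at the end of chromosome 4, in the bin that starts at 190 Mb. It had 286.0, 234.6 and 310.8 in DMSO, 233.8, 226.8 and 298.0 in dTAG, and 369.9, 471.6 and 347.7 in dTAG+I-BET, so that the dTAG+I-BET libraries lay above all others. The log2 ratio to dTAG was 0.61 (limma adjusted p = 0.142) and that to DMSO 0.48 (adjusted p = 0.999).

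Among 51165 pairs of viewpoint and bin, limma called 1 in dTAG+I-BET against dTAG (0.00195%) and none in the other comparisons (0%, with 2221 in dTAG against DMSO and 2733 in dTAG+I-BET against DMSO at an unadjusted p under 0.05, and 3 in each with edgeR). The called pair was MTAP with the bin of chromosome 4 that starts at 31 Mb. It held 5, 5 and 2 interactions in DMSO, 6, 15 and 5 in dTAG, and 0, 0 and 0 in dTAG+I-BET. All dTAG+I-BET libraries were thus at 0, and with a floor of 3 interactions over the group the signal was at least 6.48-fold lower than in dTAG (limma adjusted p = 0.0235). When libraries were left out in turn the adjusted p ran from 0.0287 to 0.328, and the call remained only without DMSO replicate 3 or dTAG+I-BET replicate 2; the pair rests on few interactions.

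MYC had a bin with its highest values in all dTAG+I-BET libraries, which was not called with limma. The pairs called with edgeR, 1 higher and 2 lower in dTAG+I-BET against dTAG and likewise against DMSO, are not named here. In the bin of chromosome 20 that starts at 37 Mb, its signal was 402, 253 and 252 in DMSO, 206, 282 and 287 in dTAG, and 839, 831 and 814 in dTAG+I-BET. The dTAG+I-BET libraries were more than 2 times all others. The log2 ratio was 1.62 to dTAG (limma adjusted p = 0.675) and 1.43 to DMSO (adjusted p = 0.726). A single fragment, chr20:37326435-37327486, held 0, 4 and 4 interactions in DMSO, 1, 2 and 1 in dTAG, and 17, 17 and 14 in dTAG+I-BET. It holds no copy of the 18 bases beside a GATC of MYC.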

How the data were processed

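Capture-C of 9 libraries and 20 viewpoints was used. Per the study, chromatin was cut with DpnII, and the authors counted interactions per fragment with CapCruncher (version 1) on hg38; the submitters' notes name bcl2fastq 2.17. The deposited signal counts the interactions between fragment and viewpoint, multiplied by the authors by 1 factor per viewpoint and library. All values were whole multiples of that factor (102057804 of 102057804, 100%, tolerance 0.01), so that interactions were recovered; 1 interaction was worth 15.8 to 86.6. A viewpoint and library held 6700 to 32673 interchromosomal interactions; floors cover counting error only. The letters TR in the column names are not explained. No column of another series was present (0).

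Signal was summed per chromosome and per 1-Mb bin by fragment start, with viewpoints assigned to chromosomes through GENCODE genes. Groups came from the labels. limma 3.58.1 in R 4.3.3 was fitted to log2(signal per Mb + 20) of all 9 libraries, with a variance trend for pairs and bins, after a filter at a mean of 50 for bins; edgeR 4.0.16 (quasi-likelihood) was fitted to the recovered interactions. The limma fits of bins and of pairs with a chromosome or a bin were tested on simulated data, whereas edgeR was not. Means over viewpoints were compared with exact permutation tests. Sums and descriptions were made in Python 3.11.15 (numpy 2.4.6, scipy 1.17.1, pandas 2.3.3). Replicate numbers were checked for pairing on totals, pairs and bins. Correlations of same-numbered libraries between groups were -0.25 to 0.13, so the numbers did not pair the samples on these features. Library depth and single fragments were not part of this check. In replicates 1 to 3 it was 272663, 447165 and 337808 interchromosomal interactions in DMSO and 251357, 415573 and 304612 in dTAG. In dTAG+I-BET it was 287206, 289581 and 264722. Whether groups or replicates were prepared together was not tested.

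Features named with values were the called ones, the extremes of each ranking, and members of the viewpoint gene families. The members, lists and thresholds were chosen with earlier results of these data known. The set of single fragments, the 18-base comparison and the centered totals were chosen after seeing the data. Alternatives were equal totals, leaving out each library, a replicate block, fits of 2 groups, edgeR, other bins, filters, pseudocounts and thresholds, and leaving out the fragments with the highest 0.1% of signal. Contacts with the sex chromosomes and unplaced sequence were left out of the comparisons.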

Additional observations from a re-analysis of the deposited data

Results flagged for a closer look

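Interactions outside chromosomes 1 to 22, on the sex chromosomes, the mitochondrial genome or unplaced sequence, were left out of the comparisons and made up 4.533% of the contacts outside the viewpoint's chromosome on average in dTAG+I-BET (4.538%, 4.524% and 4.538%), which lay above the DMSO replicates (4.521%, 4.184% and 4.484%), while the dTAG replicates were at 4.595%, 4.418% and 4.163%; the difference was not tested.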

How the results depend on the processing

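Counts of called features depended on single libraries. Leaving out each library in turn gave, in the order dTAG against DMSO, dTAG+I-BET against dTAG and dTAG+I-BET against DMSO, 0 to 13, 0 to 9 and 0 to 3 totals, 0 to 22, 0 to 20 and 0 to 0 chromosomes, 0 to 42, 0 to 45 and 0 to 40 pairs with a chromosome, 0 to 27, 0 to 4 and 0 to 0 bins, and 0 to 1, 0 to 5 and 0 to 7 pairs with a bin. Apart from pairs with a bin, each of the highest counts above 0 came without dTAG replicate 3. The 7 pairs with a bin came without dTAG+I-BET replicate 1. The mean log2 ratio over viewpoints ranged from -0.145 to 0.038 for dTAG against DMSO (0.038 without dTAG replicate 1 and 0.022 without dTAG replicate 2), from -0.067 to 0.116 for dTAG+I-BET against dTAG (0.116 without dTAG replicate 3, and 0.0012 and 0.017 without dTAG+I-BET replicates 1 and 3) and from -0.054 to -0.011 for dTAG+I-BET against DMSO; the median over viewpoints in place of the mean turned the dTAG+I-BET against dTAG value to 0.027. For MYC, the total in dTAG against DMSO turned from -0.045 to 0.024 without dTAG replicate 1 (-0.14 without replicate 3) and to 0.028 after centering, and for MTAP the total in dTAG+I-BET against dTAG turned from -0.041 to 0.047 without dTAG replicate 3 (-0.10 without replicate 1).

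Centered totals gave 1, 1 and 3 calls in the same order. In dTAG+I-BET against DMSO, totals had 0 calls with edgeR and 3 in a fit of only the 2 groups. Pairs with a chromosome had, in dTAG against DMSO, 0 with equal totals, 0 with only 2 groups, 0 with edgeR and 2 without the highest fragments, and in dTAG+I-BET against DMSO 0 with equal totals, 33 with only 2 groups and 0 with edgeR. Bins had 1 call in each comparison with equal totals, 1 with 2-Mb bins in dTAG+I-BET against dTAG and 1 with only 2 groups in dTAG+I-BET against DMSO. Pairs with a bin had 3 calls in each comparison with edgeR, and the 1 in dTAG+I-BET against dTAG became 0 with only 2 groups and 0 with no filter. The other 81 counts and means were within 1.5 times or kept their direction. The cause was not tested.

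The replicate number was also used as a block, a pairing that the correlations of totals, pairs and bins did not bear out. Totals in dTAG+I-BET against DMSO then went from 1 to 0. Pairs with a chromosome went from 9 to 1 there and, in dTAG against DMSO, from 1 to 0. Pairs with a bin in dTAG+I-BET against dTAG went from 1 to 0. No other count of calls changed, and the means over viewpoints stayed at -0.028, -0.000404 and -0.029.

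Shared bins numbered 217 at a threshold of 1.5 times, 3 at 3 times, 59 with 500-kb bins, 18 with 2-Mb bins, 7 per covered length and 146 from the DMSO libraries only. Specific pairs numbered 1037, 76, 721 and 171 under the first 4 of these and 1092 from the DMSO libraries only. The called pair with a bin held 0 to 15 interactions per library.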
